A study of Mus musculus with 3 samples.

Results

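The 10 genes described here encode the cytoplasmic actins and proteins that bind, anchor or turn over actin filaments, together with the intermediate filament protein vimentin and the transcription factor that is known to drive many such genes. They are Srf, Actb, Actg1, Cfl1, Tagln2, Flna, Tln1, Vcl, Zyx and Vim, chosen by symbol, and all 10 were found among 55536 annotated genes, of which 22028 are protein-coding. RNA bound to chromatin was sequenced, after removal of ribosomal RNA, from bone-marrow-derived macrophages of C57BL/6J mice given lipid A, a ligand of Toll-like receptor 4, at 100 ng/ml for 20 min. There was 1 group of 3 libraries, with no unstimulated cells and no cells lacking SRF, so neither a response to lipid A nor control by SRF could be measured. Replicate 1 was made from 1000 ng of RNA, replicate 2 from 250 ng and replicate 3 from 500 ng. The labels list a separate biosample for each library under 1 donor entry and do not give age or sex, nor say whether the cells came from separate animals. The spread between libraries and the p-values below measure only how these samples differ, which may be technical.

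Serum response factor (SRF) binds a short DNA element, the CArG box, and works with 2 kinds of partner. The myocardin-related factors MRTF-A and MRTF-B are held in the cytoplasm by actin monomers and enter the nucleus when monomers are used up by filament assembly, and the genes they act on include actins and adhesion proteins. The ternary complex factors of the Elk family respond to MAP kinases and act with SRF on immediate early genes such as Fos. In macrophages the actin network serves crawling, spreading and phagocytosis. Chromatin-bound RNA is enriched for transcripts that are still being made or spliced, so levels here are not those of mature cytoplasmic mRNA.

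The CArG box, CC followed by 6 bases that are A or T and then GG, was searched on both strands of RefSeq promoter windows that run from 250 bases before to 50 bases after a gene's start (GRCm38.p6). Windows were at hand for 9 of the 10 genes, Actb being the exception. An exact box lay in 3 of the 9, those of Srf, Actg1 and Vcl, against 1.63% of all 32851 windows and 1.51% of the 20150 windows of coding genes. With 1 mismatch allowed the count was 5 of 9, adding Flna and Cfl1, against 21.1% of all windows. The Vcl and Cfl1 windows lie at the annotated start of the gene. The other windows lie at starts inside the annotated gene, that of Flna furthest in. The parts upstream of the start and outside annotated exons that hold exact boxes are shown because they are the elements that the genes' known regulator could bind, with the boxes in capitals and each sequence written 5′ to 3′ on the gene's own strand.

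Srf promoter, chr17:46556176-46556412, minus strand: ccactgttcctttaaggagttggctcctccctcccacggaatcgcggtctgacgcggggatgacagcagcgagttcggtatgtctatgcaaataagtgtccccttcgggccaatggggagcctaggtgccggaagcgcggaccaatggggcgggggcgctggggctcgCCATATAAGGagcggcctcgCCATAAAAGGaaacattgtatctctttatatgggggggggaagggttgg
Actg1 promoter, chr11:120348543-120348677, minus strand: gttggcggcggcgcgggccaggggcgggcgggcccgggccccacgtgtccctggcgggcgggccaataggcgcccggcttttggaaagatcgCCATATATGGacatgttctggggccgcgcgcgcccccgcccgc
Vcl promoter, chr14:20929148-20929397, plus strand: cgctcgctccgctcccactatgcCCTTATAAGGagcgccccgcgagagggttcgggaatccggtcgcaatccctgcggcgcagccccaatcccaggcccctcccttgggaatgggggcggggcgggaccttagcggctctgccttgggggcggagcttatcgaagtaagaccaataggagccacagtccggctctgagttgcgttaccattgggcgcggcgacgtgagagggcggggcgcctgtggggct

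The Srf window, of the gene that encodes the factor itself, held 2 exact boxes, with first bases 82 and 62 bases before the start. The Actg1 box began 90 bases before the start and the Vcl box 227 bases before it. The windows are rich in G and C, with 63.3% in Srf, 77.3% in Actg1 and 66.7% in Vcl, and the boxes are runs of A and T within them. A match is a description of letters, not of binding, and elements outside the window were not searched.

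The 3 libraries held 16317439, 16245280 and 12439931 expected counts in replicates 1, 2 and 3. Levels are given in TPM, a measure of transcript abundance that is corrected for length and depth. Small nucleolar RNAs took 55.7%, 46.4% and 40.4% of all TPM, which left coding genes 15.8%, 18.1% and 24.7%. A cluster of 3 neighbouring genes, Gm26917, Gm42418 and CT010467.1, took 15.3%, 26.0% and 10.8% of counts. Of 12 macrophage markers 11 were at or above 1 TPM in every library, led by Cd14 at 191 TPM. Of 8 fibroblast and 8 smooth muscle and pericyte markers, cells in which several of these genes are abundant, none was at or above 1 TPM in every library. The summed level of the fibroblast markers was 1.09 to 2.59 TPM and that of the smooth muscle and pericyte markers 1.45 to 2.97 TPM, of which Tagln gave 1.40 TPM in the mean. Fap, at 1.14 TPM, was the highest fibroblast marker, and Lum, Des and Rgs5 were at 0 in every library. Of other lists, 2 of 6 endothelial markers (Vwf at 45.5 TPM highest), 4 of 6 of megakaryocytes and platelets (Pf4 at 15.6 TPM) and 1 of 6 of dendritic cells (Batf3 at 1.86 TPM) reached 1 TPM in every library, as did 0 of 8 of neutrophils (Ngp at 0.697 TPM) and 0 of 8 of T, NK and B cells (Cd8a at 0.0800 TPM). These levels depend in part on the tables used. In a second set, made by the authors without aligning the reads, 3 of 8 fibroblast and 0 of 8 smooth muscle and pericyte markers reached 1 TPM. So did 3 of 6 endothelial, 3 of 6 dendritic cell and 1 of 8 T, NK and B cell markers. Thy1, a fibroblast marker, was at 7.71 TPM there against 0.0467 in the first set, and Cd8a at 2.825 against 0.0800. Lum and Rgs5 were at 0.159 and 0.237 TPM there. In bulk samples such as these, fewer cells of a type and less RNA per cell cannot be told apart.

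All 10 genes were above 1 TPM in every library, against 40.6% of coding genes, and their median was 80.7 ± 20.2 TPM (SD, n = 3). The median of coding genes at or above 1 TPM in every library was 9.02 ± 2.60 TPM. The genes spanned from 263 TPM for Actb to 4.69 TPM for Srf. In all they held 0.486%, 0.808% and 0.353% of the coding TPM in replicates 1, 2 and 3.

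Srf (chromosome 17, 46548329 to 46556175, minus strand, GRCm38, the build that mm10 names) encodes the transcription factor. It was at 2.93, 8.04 and 3.10 TPM in replicates 1, 2 and 3, from 105, 249 and 74 expected counts. Replicate 2 lay above the other libraries, which were close to each other. The mean was 4.69 ± 2.90 TPM (SD, n = 3), rank 6466 of 22028 coding genes, and Srf had the fewest counts of the 10. The long noncoding RNA gene Gm26904 lies on the opposite strand over the whole of Srf and held 52, 38 and 40 counts, and, as the use of strand is not stated, reads of the pair may not be told apart.

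The actins, which form the filaments, were near the top. Actb (chromosome 5, 142903115 to 142906754, minus strand) encodes beta-actin and was at 195, 424 and 170.2 TPM, from 5547, 8142 and 2378 counts. Its mean of 263 ± 139.7 TPM (SD, n = 3) ranked 49 among coding genes. Replicate 2 was 2.17-fold above replicate 1 and 2.49-fold above replicate 3. Actg1 (chromosome 11, 120345690 to 120348542, minus strand) encodes gamma-actin and was at 135, 264 and 143 TPM, a mean of 181 ± 72.0 (SD, n = 3), with the same library high. The coding sequences of the pair agree at 88.6% of 1125 bases, with 128 differences and a longest identical run of 62 bases, so reads that fall in shared stretches are divided between them by estimation. Of 21 near-identical copies of Actg1 in the annotation, 11 were pseudogenes, and all 21 held at most 2.52% of the counts of Actg1.

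Cfl1 and Tagln2 bind actin directly. Cfl1 (chromosome 19, 5490455 to 5495201, plus strand) encodes cofilin-1, which severs filaments and returns monomers, and was at 17.0, 36.1 and 22.1 TPM. The mean was 25.1 ± 9.91 TPM (SD, n = 3), again with replicate 2 highest. Snx32 overlaps it on the opposite strand by 2967 bases and held more counts than Cfl1 in every library, from 147% to 254% of its count, so Cfl1 is uncertain where strand was not used. Tagln2 (chromosome 1, 172500047 to 172507380, plus strand) encodes transgelin-2, which bundles filaments, and was at 19.9, 16.9 and 21.8 TPM, a mean of 19.6 ± 2.48 (SD, n = 3). Replicate 2 was its lowest library, and the deposited intervals of all 3 libraries overlapped.

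Filamin and the adhesion proteins link filaments to the membrane. Flna (chromosome X, 74223461 to 74249820, minus strand) encodes filamin A, which crosslinks filaments, and was at 149.6, 332 and 192 TPM. It had the most counts of the 10, 13075, 22042 and 8326, and a mean of 225 ± 95.6 TPM (SD, n = 3). Tln1 (chromosome 4, 43531519 to 43562691, minus strand) encodes talin-1, which activates integrins and ties them to actin, and was at 101, 167 and 140.2 TPM, a mean of 136 ± 33.5 (SD, n = 3). Both genes lay far above Zyx and Vcl in every library of the gene tables.

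Zyx (chromosome 6, 42349630 to 42360213, plus strand) encodes zyxin, a protein of mature adhesions and stress fibres, and was at 13.6, 34.9 and 17.1 TPM. Replicate 2 was 2.55-fold above replicate 1 and 2.04-fold above replicate 3, a spread like that of Srf and Actb. Vcl (chromosome 14, 20929398 to 21033676, plus strand) encodes vinculin, which strengthens the link of talin to actin, and was at 7.36, 10.6 and 11.0 TPM. Its replicates 2 and 3 were alike and replicate 1 was lower, a mean of 9.66 ± 2.00 TPM (SD, n = 3). Vcl spans 104279 bases, the longest of the 10, and Ap3m1 overlaps it on the opposite strand by 2235 bases with 467, 278 and 501 counts against 928, 1030 and 684 for Vcl.

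Vim (chromosome 2, 13573927 to 13582826, plus strand) encodes vimentin, which forms intermediate filaments rather than actin filaments. It was at 127, 165 and 153 TPM, a mean of 149 ± 19.3 (SD, n = 3). Its highest library was 1.30-fold above its lowest, against 2.74-fold for Srf and 2.56-fold for Zyx. Tagln2, at 1.29-fold, had the smallest such ratio of the 10.

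**Figure D1:**
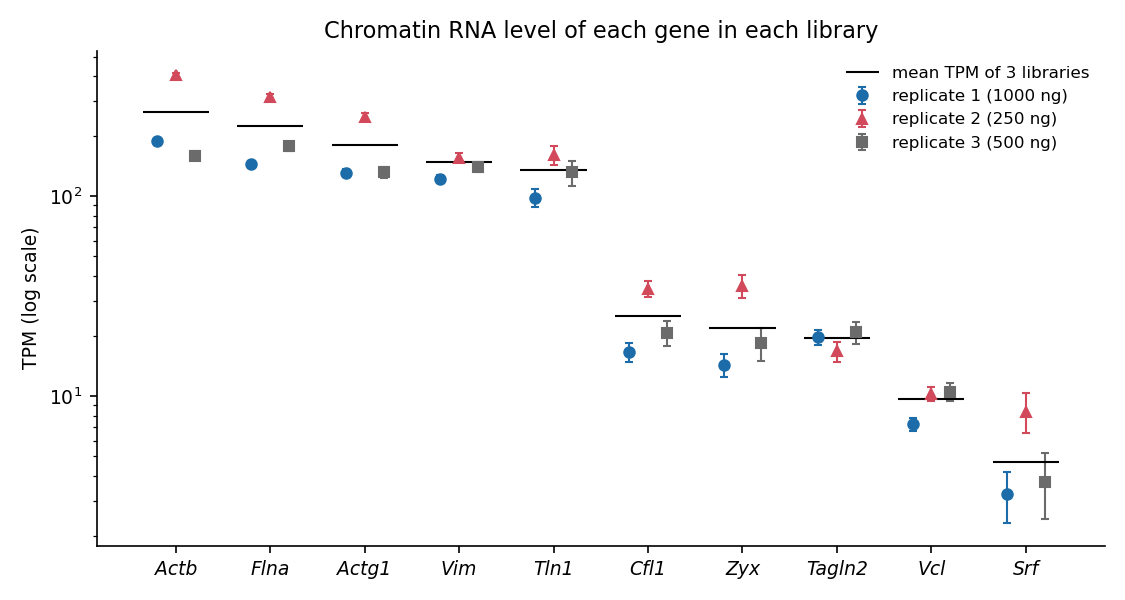
TPM of the 10 genes (vertical axis, log scale) in order of their mean, by library. Points are the deposited posterior means with the bounds of the authors' credibility interval, of unstated level, and bars are mean TPM over 3 libraries. Replicate 2 stands above the other libraries for Actb, Flna, Actg1, Cfl1, Zyx and Srf, and not for Tagln2 or Vcl.

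The order of the means was Actb, Flna, Actg1, Vim, Tln1, Cfl1, Zyx, Tagln2, Vcl and Srf. Neighbours were called separated where the log2 difference had the same sign in every library and its mean was over 2 SD. Of 9 neighbouring pairs 3 met this. Flna lay above Actg1 by 0.30 ± 0.14 on the log2 scale, Tln1 above Cfl1 by 2.48 ± 0.24, and Tagln2 above Vcl by 1.02 ± 0.38 (SD, n = 3). The other 6 pairs did not meet this rule, among them Actb and Flna, whose order turned in replicate 3. Cfl1 lay above Zyx and Vcl above Srf in every library, but by less than 2 SD, at 0.25 ± 0.17 and 1.16 ± 0.71 (SD, n = 3). No test was run, since with 3 libraries the smallest p of an exact sign-flip test is 0.25. The step between Tln1 and Cfl1 divides the genes into 5 that were at 101 TPM or more in every library and 5 that were at 36.1 TPM or less.

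Replicate 2 was the highest library for 8 of the 10 genes, all but Tagln2 and Vcl, against 8.77% of 8942 coding genes at or above 1 TPM in every library. The background share depends on the scale, and the genes' count much less. With TPM rescaled over coding genes it was 9 of 10, all but Tagln2, against 34.2%. In the second set of tables, made by the authors without aligning the reads, it was 7 of 10 against 2.27%. These rescalings were chosen after seeing the data. To take the scale out, each gene's log2 deviation from its own mean over the libraries was set against the median deviation of coding genes in the same library, which was -0.33, -0.10 and 0.42.

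On that footing the 10 genes had medians of -0.05 in replicate 1, 0.71 in replicate 2 and -0.55 in replicate 3. In replicate 2, 9 of 10 lay above the coding median, and in replicate 3, 0 of 10 did. Srf, at 1.03, was higher than 99.96% of coding genes in replicate 2 and lower than all but 0.235% in replicate 3, where it was at -0.85. Actb was at 0.91 and -0.93 in these libraries and Zyx at 0.89 and -0.66. Actg1, Flna and Cfl1 followed at 0.72, 0.75 and 0.70 in replicate 2. Tln1, Vim and Vcl were above the median by less, at 0.43, 0.26 and 0.25, and Tagln2 was at -0.10. The differences from the coding median in replicate 2 were 0.71 with rescaled TPM and 0.69 in the second set of tables.

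**Figure D2:**
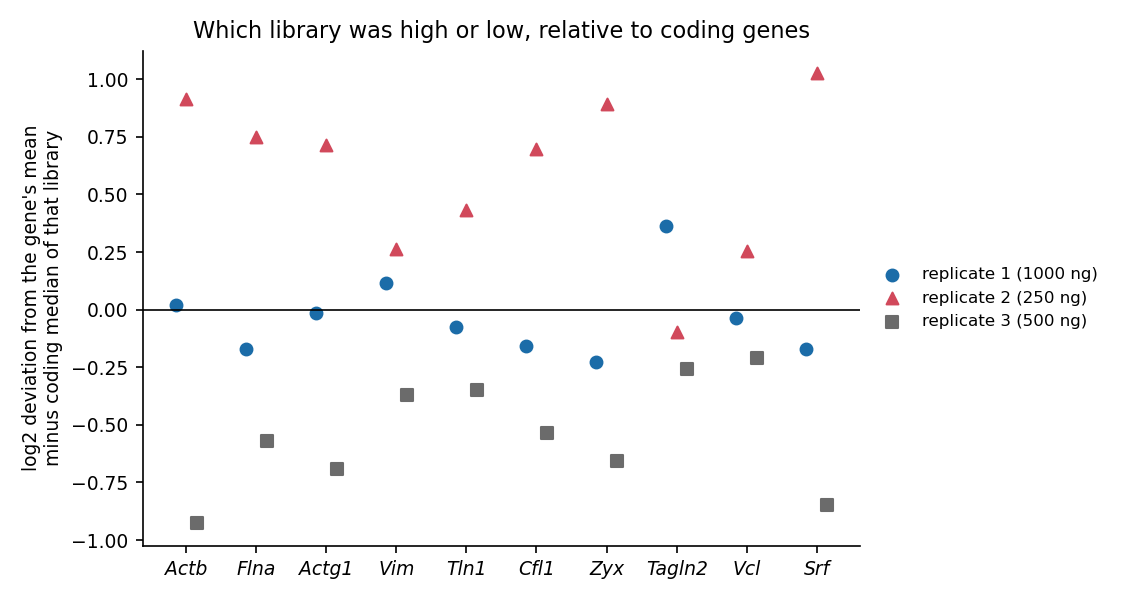
Log2 deviation of each gene from its own mean over 3 libraries, minus the median of coding genes in that library (vertical axis), for the 10 genes in order of level. In replicate 2, 9 of 10 genes lie above 0, led by Srf at 1.03, and in replicate 3 all 10 lie below 0.

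Ratios between pairs of libraries show the pattern with replicate 2 left out. In replicate 1 over replicate 3 the 10 genes had a median log2 ratio of -0.29 against -0.75 for coding genes, and 10 of 10 lay above the coding median, by 0.17 for Vcl to 0.95 for Actb. In replicate 2 over replicate 1, 9 of 10 lay above it, the exception being Tagln2 at -0.46, and in replicate 2 over replicate 3, 10 of 10. The libraries were thus ordered as replicate 2, 1 and 3 for the set relative to other coding genes. This is not the order of the starting amounts, of which replicate 2 had the smallest. It is the order of the share of counts held by the 3 neighbouring genes above, at 26.0%, 15.3% and 10.8% in replicates 2, 1 and 3. It is the reverse of the share of counts held by coding genes, at 57.6%, 64.0% and 66.8%. Both are shares of the same counts, so they are not independent. The coding share of TPM, at 18.1%, 15.8% and 24.7%, ran in neither order. Nor did the small nucleolar RNA share of TPM, at 46.4%, 55.7% and 40.4%. The Malat1 share, at 7.44%, 7.11% and 11.1%, and the mitochondrial share, at 0.0491%, 0.118% and 0.0416%, also ran in neither. With 3 libraries few orders are possible, so a match of order is a description only. The part of these shares in the result was not tested.

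The spread between libraries was also wide for these genes by a measure fitted over all of them. The biological coefficient of variation, which is the spread beyond counting error that edgeR estimates for each gene, had a median of 0.287 for the 10 genes and 0.198 for 13985 genes tested, and all 10 were above that median. Srf, at 0.398, was above 98.8% of genes, Actb, at 0.365, above 98.1%, and Vim, at 0.202, above 55.0%.

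The genes whose profile over the 3 libraries lay nearest to those of Srf and Actb were sought among 7578 coding genes whose counts averaged at least 100, by root mean square difference of log2 CPM. For Srf the nearest was Cotl1, which encodes a coactosin-like actin-binding protein, at 0.14, with 8.32, 23.7 and 13.8 TPM in replicates 1, 2 and 3. Espl1 at 0.16 and Dennd2a at 0.19 followed. By TPM Espl1, at 0.81, 2.34 and 3.59, was highest in replicate 3, unlike Srf, while Dennd2a was at 2.26, 5.22 and 2.60. For Actb the nearest were Hmox1, which encodes haem oxygenase 1, at 0.06, Stab2 at 0.14 and Actg1 at 0.16. Hmox1 was at 11.0, 22.6 and 9.13 TPM. Likeness over 3 libraries is a description only.

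A slope on the log2 starting amount was fitted for every gene with edgeR's quasi-likelihood test, with Benjamini-Hochberg adjustment. There was 1 library per amount, so the amount and the library cannot be told apart. Of 13985 genes 160 passed an adjusted p of 0.05 (1.14%), 144 higher with more RNA (1.03%) and 16 lower (0.114%). Of the 10 genes 0 passed, 4 had an unadjusted p below 0.05, against 6.97% of all genes, and 9 had a negative slope, against 49.3% negative over all genes. DESeq2 also called 0 of 10, against 0.745% of 11816 genes, with 2 at an unadjusted p below 0.05, against 3.76%.

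Srf came nearest, with a slope of -0.76 ± 0.21 per doubling (SE, n = 3 libraries) and an adjusted p of 0.0801 by edgeR's quasi-likelihood test. Its adjusted p was 0.0103 with no filter on low counts, 0.00422 with the counts of the second set of tables and 0.836 with DESeq2. Zyx had a slope of -0.48, Flna of -0.49 and Tln1 of -0.42, with edgeR adjusted p from 0.317 to 0.709. All of these negative slopes rest on replicate 2. Without it the 10 slopes ran from 0.15 to 1.00, all positive. Those slopes are the contrast of replicates 1 and 3 alone, on log2 CPM, and the share of positive slopes over all genes is not given here.

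Each gene's level is a sum over annotated isoforms, and in chromatin RNA the isoforms that are not coding, mostly of the retained-intron class, held much of it. For the 10 genes the median share of TPM in such isoforms was 61.2% ± 2.52 (SD, n = 3), against 48.1% ± 1.59 for 7454 coding genes at or above 1 TPM that have such an isoform. As a share of expected counts the medians were 29.7% and 26.1%, and in the second set, by TPM, 55.0% and 53.5%. The 10 genes thus stood further above the rest by share of TPM than on the other scales. TPM divides by length, so a short isoform weighs more in TPM than in counts.

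The retained-intron isoforms annotated for the actins all end by 54.6% of the way along the gene, so retention further along could not be seen. Actb-204 and Actb-205, retained-intron isoforms that end near the middle of the gene, were at 87.1 ± 53.8 and 82.2 ± 48.1 TPM, beside 80.5 ± 29.7 for Actb-201, the full coding isoform (SD, n = 3). By counts Actb-201 led with 55.6%. Actg1 had 58.1% ± 2.67 of its TPM (SD, n = 3) in retained-intron isoforms, led by Actg1-208, which covers the first 28.8% of the gene. In Cfl1 1 such isoform, Cfl1-203, held 50.7% ± 3.68 of TPM, and in Tagln2 Tagln2-203 held 64.0% ± 3.97 (SD, n = 3).

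Flna and Tln1, whose coding isoforms are long, differed most between scales. In Flna noncoding isoforms held 65.4% ± 0.387 of TPM (SD, n = 3) but 11.6% of counts, and Flna-211, Flna-212, Flna-204 and Flna-209 are pieces of 632 to 1106 bases near the 3′ end, while the coding Flna-202 has 8345. In Tln1 they held 59.5% of TPM and 3.94% of counts, with Tln1-204, an isoform of 283 bases, alone at 51.4 ± 4.45 TPM (SD, n = 3). Tln1-201, the full coding isoform of 57 exons, held 96.1% of counts. For both genes the high TPM thus includes short isoforms with a small share of the gene's counts. Tln1-201 by itself was at 56.1 ± 19.2 TPM and Flna-202 at 57.3 ± 24.4 (SD, n = 3).

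Vim was unlike them, since its noncoding share stayed high by counts, at 72.3% beside 76.0% of TPM. Vim-205, an isoform of 2926 bases in 1 exon that runs unspliced over the first part of the gene, held 59.3% ± 6.88 of its counts (SD, n = 3). Zyx also kept a high share, with 67.8% of TPM and 58.2% of counts, led by the retained-intron isoform Zyx-203 at 8.98 ± 5.08 TPM (SD, n = 3). Vcl was the lowest of the 10 by TPM at 38.4% ± 5.10 (SD, n = 3), all of it in Vcl-203, which ends 66.5% of the way along the gene. Srf varied most between libraries, with 56.5%, 38.9% and 32.4% in replicates 1, 2 and 3, and had 88.0% of its counts in Srf-201, the full coding isoform.

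**Figure D3:**
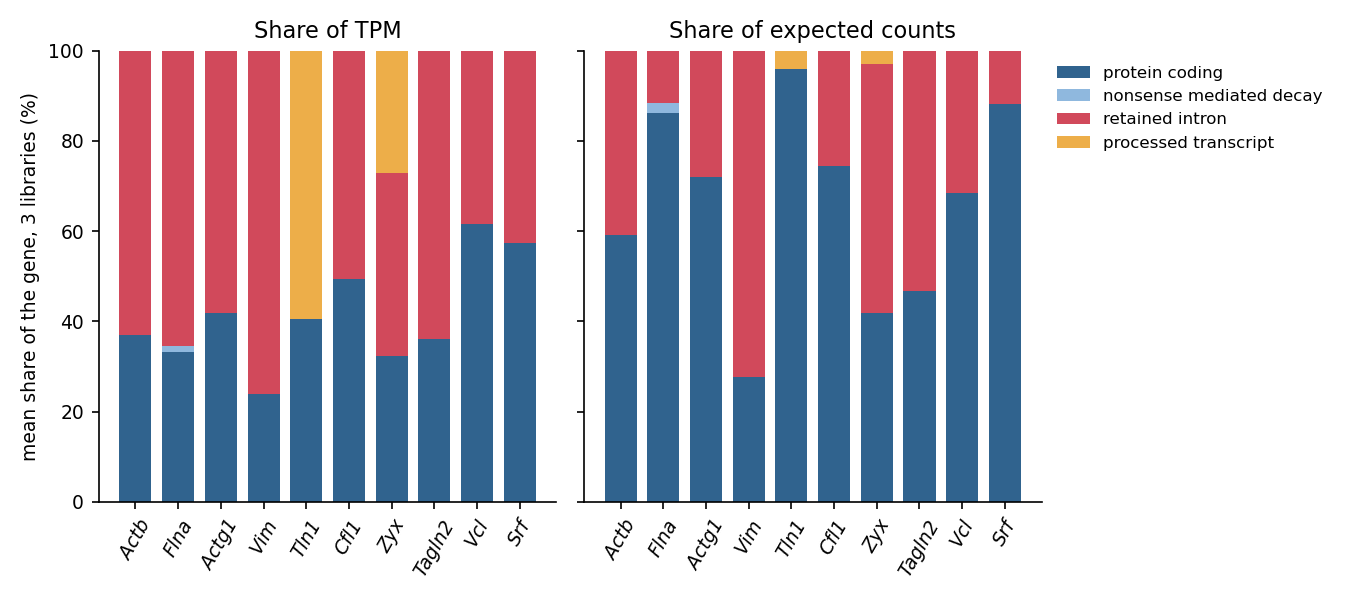
Mean share of each gene's TPM (left) and expected counts (right) in 4 annotated isoform classes, in percent over 3 libraries. Tln1 and Flna turn from mostly noncoding by TPM to mostly coding by counts, while Vim stays at 76.0% and 72.3% retained intron.

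The second set of tables moved some levels. Means were 259 TPM for Actb, 219 for Flna, 160.0 for Actg1 and 25.7 for Cfl1, which are 0.885 to 1.02 times those of the gene tables. With both sets rescaled over coding genes these ratios were lower, at 0.613, 0.612, 0.546 and 0.641. On that scale Tln1 was at 0.776, Vim at 0.986 and Vcl at 0.987. Tagln2, Srf and Zyx stayed above 1, at 1.54, 1.815 and 4.12. Zyx rose most between the tables, from 21.9 to 138 TPM, of which Zyx-210 gave 75.9 and Zyx-211 35.2, short isoforms of 344 and 351 bases. In replicate 2 Zyx was at 249 TPM there, above Tln1 at 191, the reverse of their order in the gene tables. Srf was at 13.4 TPM, 2.87-fold the gene tables, with 78.9% of its TPM in noncoding isoforms. Tagln2 was at 50.7 TPM, of which 29.1 came from Tagln2-201, listed at 0 in the gene tables' transcripts. Ordered by these levels, 0 of 9 neighbouring pairs were separated.

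**Figure D4:**
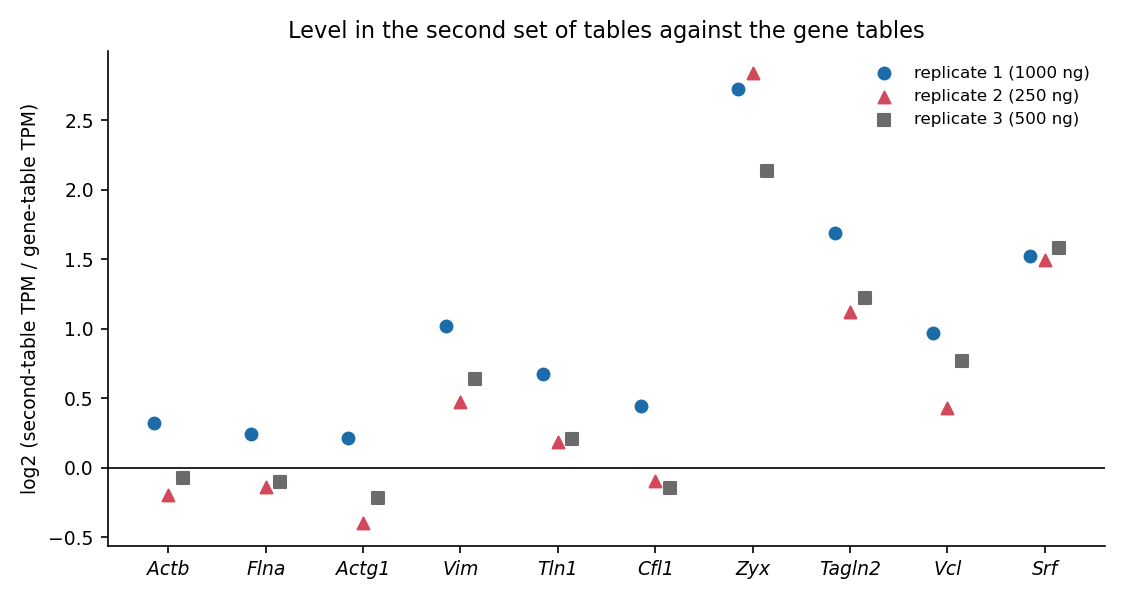
Log2 ratio of TPM in the second set of tables to TPM in the gene tables (vertical axis) for each gene and library. Zyx, Tagln2 and Srf lie above 1 in every library, while Actb, Flna, Actg1 and Cfl1 lie within 0.5 of 0.

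Lists of related genes put these values in context. Of 6 SRF cofactors 5 were at or above 1 TPM in every library, led by the coactivator gene Mrtfa at 56.5 ± 12.2 TPM, with Elk4 at 22.9 ± 8.32 and Mrtfb at 13.0 ± 2.85 (SD, n = 3). Myocd, the myocardin gene, was at 0 in every library. All 5 were below the coding median in replicate 2, with a median of -0.19, so the partners did not share the high library of Srf. Elk3, the lowest of the 5, was at 4.06, 2.77 and 6.95 TPM in replicates 1, 2 and 3.

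Of 25 other genes known as MRTF-type targets 13 were at or above 1 TPM in every library. Tpm3, a tropomyosin gene, led at 245 ± 63.2 TPM, with Wdr1, a cofilin cofactor, at 85.8 ± 19.1 and Myh9, the nonmuscle myosin IIA heavy chain gene, at 57.2 ± 15.8 (SD, n = 3), while Ccn1, the lowest with any count, was at 0.0133 TPM and Myl9 was at 0 in every library. Relative to the coding median their median in replicate 2 was 0.27 and 11 of 13 lay above it. Replicate 2 was highest for 5 of the 13, against 8.77% of coding genes: Lima1, Actn1, Myh9, Tpm3 and Wdr1, of which Lima1 and Actn1 are named after their values were seen. Lima1 was at 16.5, 47.0 and 24.8 TPM.

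All 10 immediate early genes known as TCF-type targets were above 1 TPM in every library, led by Fos at 282 ± 164.9 TPM, Mcl1 at 207 ± 86.4 and Nr4a1 at 205 ± 59.8 (SD, n = 3). Fos was at 113, 293 and 442 TPM in replicates 1, 2 and 3. Replicate 2 was highest for 0 of the 10, where the share over coding genes was 8.77%, and their median relative to coding genes there was -0.23, with 3 of 10 above it. Egr3, the lowest, was at 7.70 ± 2.50 TPM (SD, n = 3). Egr2, at 36.5, 16.6 and 27.6 TPM, was the only gene of these lists that passed the slope test, higher with more RNA, with an edgeR quasi-likelihood adjusted p of 0.0232.

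The other actin machinery was expressed broadly. All 23 genes of monomer and filament turnover were at or above 1 TPM in every library, led by Tmsb4x, the gene of the monomer-binding thymosin beta-4, at 104 ± 17.1 TPM, Wdr1 and the coronin gene Coro1b at 73.4 ± 19.4 (SD, n = 3), with Dstn lowest at 4.33. Of 15 genes of the Arp2/3 complex, which nucleates branched filaments, and its activators 14 were, led by Actr3 at 187 ± 24.3 TPM, Arpc1b at 88.7 ± 20.8 and Arpc3 at 85.5 ± 53.0 (SD, n = 3). Cttn, at 1.14 TPM in the mean, was the exception.

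Among 23 integrin adhesion partners 19 were at or above 1 TPM in every library. Fermt3, the gene of kindlin-3, led at 85.7 ± 27.9 TPM, with Ptk2b at 52.6 ± 10.2 and Ilk at 51.3 ± 10.1 (SD, n = 3). Fermt2, the gene of kindlin-2, was at 0.00333 TPM, but at 2.69 TPM in the second set of tables. Of 18 paralogues of the 10 genes 7 reached that level, led by Ctnna1 at 30.8 ± 5.40, Lpp at 25.2 ± 6.69 and Lmna at 19.7 ± 4.89 TPM (SD, n = 3), and Flnc was at 0.00333 TPM.

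In these lists replicate 2 was highest for 4 of 23 turnover genes, 0 of 14 Arp2/3 genes, 2 of 19 adhesion partners and 2 of 7 paralogues at or above 1 TPM, against 8.77% of coding genes. Their medians relative to coding genes in replicate 2 ran from -0.02 for the Arp2/3 list to 0.10 for the paralogues. Among cell type lists in replicate 2, the 11 macrophage markers had a median of 0.00, with 2 of 11 highest there. The 4 megakaryocyte and platelet markers at or above 1 TPM had a median of 0.21, with 3 of 4 above the coding median. Of these 4 markers 1 was highest in replicate 2, and Pf4, the gene of platelet factor 4, was at 0.51. The dendritic cell marker Batf3 was at 0.33. The 2 endothelial markers at or above 1 TPM had a median of -0.10, with 1 of 2 above the coding median. The part of other cell types in the pattern of the 10 genes was not tested.

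**Figure D5:**
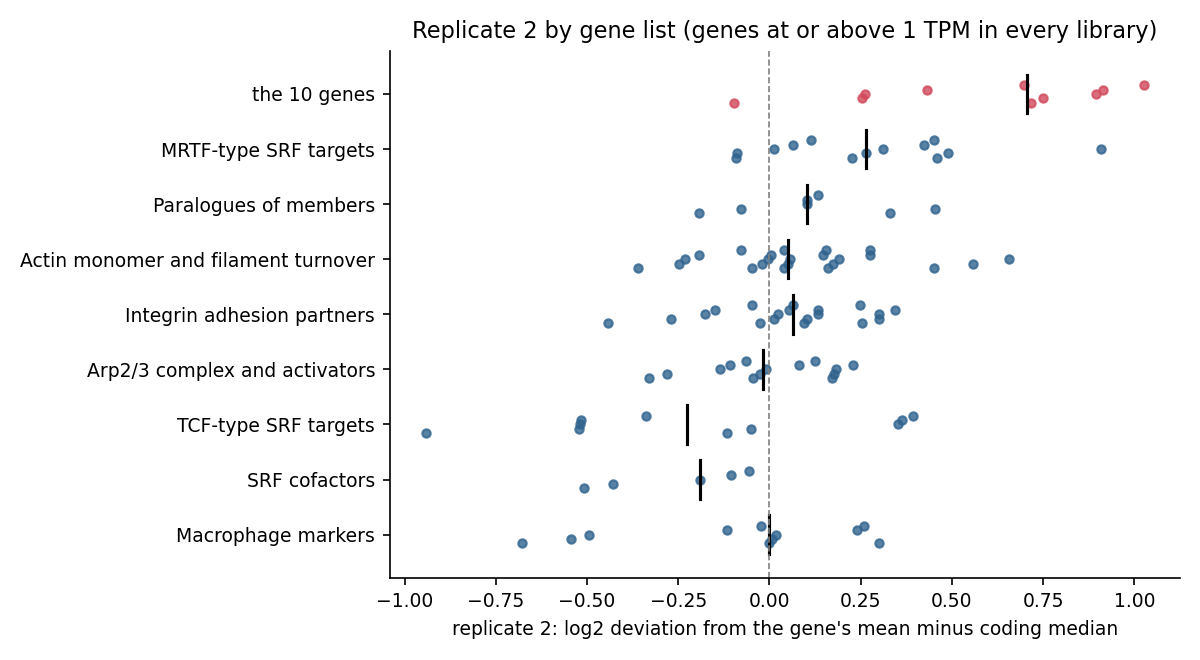
Log2 deviation in replicate 2 minus the coding median (horizontal axis) for genes at or above 1 TPM in every library, by list, with a bar at each list's median. The 10 genes have a median of 0.71, the MRTF-type targets 0.27, and the TCF-type targets and SRF cofactors lie below 0 at -0.23 and -0.19.

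A CArG box in the promoter window was set beside the same measure. Of 110 coding genes with an exact box and at or above 1 TPM in every library, 16.4% were highest in replicate 2, and 14.95% of 107 once Srf, Actg1 and Vcl were left out, against 8.62% of 7066 genes without one. Their median deviation in replicate 2 was -0.06 with a box and -0.10 without. Among the MRTF-type targets 5 of 22 windows held an exact box (Cnn2, Fhl2, Filip1l, Lima1 and Myl9), and among the TCF-type targets 1 of 8 (Egr2). Of the 9 windows of the 10 genes, those with a box belong to Srf, Actg1 and Vcl. By TPM as deposited Srf and Actg1 were highest in replicate 2 and Vcl was not. With TPM rescaled over coding genes Vcl was highest there too, at 46.6, 58.6 and 44.7 in replicates 1, 2 and 3. In the second set of tables Vcl was highest in replicate 3, at 14.4, 14.3 and 18.8 TPM.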

How the data were processed

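Ribosome-depleted chromatin RNA was sequenced in 3 libraries of 1 group. Expected counts per gene and transcript were deposited by the authors, quantified from a transcriptome alignment against annotation M21 of mm10, per the file headers and listings, with replicates not pooled. TPM, also deposited by the authors, sums to the same total over all entries of each file, so small RNAs lower the TPM of other genes. Signal columns deposited by the authors give bounds of a credibility interval in TPM. The second set of transcript tables, with estimated counts and TPM deposited by the authors, was made without aligning the reads, and 86 genes have no row there. Tools, versions and strand settings were not given in the sources used here.

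Symbols and 1-based coordinates came from GENCODE M21 on GRCm38. Left out of tests were 96 ERCC spike-ins, 26248 numeric identifiers (at most 0.0002% of counts) and the phiX control (1.08%, 0.299% and 0.332%). The second set held 25308591, 27754284 and 21107490 estimated counts. The 10 genes and the gene lists were chosen with earlier results of these data known. Named are the 10 genes, the 3 highest and the lowest detected gene of each pathway list, the highest of each cell type list, list genes passing the slope test, and the 3 nearest profiles; 1 pathway list is not reported here. Deviations are log2((TPM + 0.1) / geometric mean). Expected counts, rounded, were fitted with edgeR 4.0.16 (R 4.3.3; TMM, filterByExpr, glmQLFTest, 1 residual degree of freedom), with DESeq2 1.42.0 as an alternative. On simulated data of 13724 genes, 82% of genes given a slope of 1 and 100% of those given 2 were recovered, with 6 other calls. Every simulated gene had a biological coefficient of variation of 0.213, and only genes with counts averaging at least 100 were given slopes. The 10 genes had a median coefficient of 0.287, so recovery for them may be lower. Near copies were found with blastn 2.17.0 (90% identity over 50% of the copy). Alternatives were other scalings, filters, tables and leaving out each library.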

Additional observations from a re-analysis of the deposited data

How the results depend on the processing

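The median of the genes' mean levels was 149 TPM in the second set of tables and 422 TPM with TPM rescaled over coding genes, and separated pairs fell to 0 in the second set. The median noncoding share was 55.0% there and 29.7% by expected counts. The slope test called 160 genes, 88 with DESeq2 (87 higher, 1 lower), 66 with DESeq2 size factors in edgeR (63 and 3), 284 with no filter (226 and 58) and 267 with the second set's counts (231 and 36). The last 2 settings each called 1 of the 10 genes, Srf. Over all genes they called 1.17% of 24261 and 1.19% of 22432. Windows with a CArG box were 5 with 1 mismatch. Rescaling over coding genes raises every level by construction, since it divides by the coding share of TPM. The cause of the other changes was not tested, except that a mismatch admits more sites, fewer genes entered DESeq2 and more entered without a filter.

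Leaving out 1 library gave a median level of 70.7 to 91.5 TPM and a noncoding share of 61.1% to 62.4%. Slopes per doubling turned with the library left out: Actb -1.79 to 1.00, Actg1 -1.39 to 0.81, Srf -1.74 to 0.28, Vcl -0.60 to 0.22, Zyx -1.47 to 0.52, Flna -1.42 to 0.43, Tln1 -0.99 to 0.15, Vim -0.51 to 0.45, Cfl1 -1.14 to 0.48 and Tagln2 -0.20 to 0.69. Vim was at 0.0163 with the second set's counts. No paired analysis was possible because there is 1 group. Expected-count shares were added after seeing the data, as were rescaled TPM and the second set's TPM for the deviations and the count highest in replicate 2. Srf, with 74 to 249 counts, has the least depth of the 10, and its isoform shares rest on few reads.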
